A study of Saccharomyces cerevisiae with 4 samples.

Results

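The genes described here encode the nuclear subunits of the mitochondrial respiratory complexes and of ATP synthase in the yeast Saccharomyces cerevisiae, with the NADH and lactate dehydrogenases that feed the chain and the small proteins that inhibit ATP synthase. They are 37 genes of 5656 that at least 1 probe set of the array names alone, and where several probe sets name the same gene, the brightest over all arrays stands for it. The list holds 5 dehydrogenase genes, 9 genes of the bc1 complex, 7 of cytochrome oxidase, 13 of ATP synthase and 3 inhibitors or stabilising factors. The rule picks genes by name and function and uses no measured value. All 37 genes lay above the intensity floor of 18.5 on all 4 arrays, so none entered through 1 medium alone.

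The study measured total RNA of strain ATCC 4126, grown in rich YP medium with either galactose or glucose as the sugar and harvested at an optical density of 1.0. Each of the 4 samples was read on 1 Affymetrix yeast array. The titles give the galactose samples the letters B and C and the glucose samples A and B, and each array is called here by its sugar and letter. No deletion, agent or time course is described in the labels, and they do not state whether a letter marks a culture of its own, an extraction or a labelling. The p-values below can therefore speak only of the variation among these 4 samples, part or all of which could be technical. In RNA from whole cultures, fewer cells with a transcript and less of it per cell cannot be told apart.

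In respiring yeast, electrons from NADH enter the chain through single-subunit dehydrogenases on the inner mitochondrial membrane, since this species lacks the large proton-pumping complex I of animals. They pass through quinone to the bc1 complex, then through cytochrome c to cytochrome oxidase and oxygen, and the proton gradient built on the way drives ATP synthase. Glucose is known to repress many of these nuclear genes in yeast, and the Hap2/3/4/5 activator is known to raise their transcription on nonfermentable carbon. Galactose is fermented too, and is known as a less repressing sugar than glucose.

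The galactose genes separated the samples as labelled. The galactokinase gene GAL1 stood at 9927 and 8965 in galactose and at 36.2 and 40.4 in glucose, 247-fold higher (limma, adjusted p = 0.00192). The median intensity of an array ran from 108 to 117. On the log2 scale Pearson's r across probe sets was 0.985 between the glucose arrays, 0.971 between the galactose arrays and 0.973 between galactose B and glucose B, and galactose C with glucose B gave the lowest of the 6 pairs, 0.950. The array's control probe sets at the 3′ and 5′ ends of the actin gene, whose ratio rises when RNA or its copy is shortened, gave 2.41 and 1.88 for the B and C galactose arrays, and 1.097 and 1.49 for the A and B glucose arrays. Within each medium the B array had the higher ratio. For the control gene YER022W the ratios were 27.2, 26.6, 10.3 and 21.6 in the same order, and for YER148W they were 1.91, 1.88, 2.13 and 1.38. YER148W thus ran the other way in glucose.

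Between the media, transcripts of the respiratory complexes did not separate. None of the 37 genes passed the test over all probe sets (limma, adjusted p under 0.05), where 0.835% of 7302 probe sets did, and none had an unadjusted p under 0.05, where 8.61% did. The smallest adjusted p of a member was 0.633. Galactose was the higher medium for 20 genes and the lower for 17. The median log2 difference was 0.01, beside -0.03 over all 5403 tested genes. For 28 of the 37 the difference was under 0.2 on the log2 scale in either direction, beside 2271 of all 5403. For 2 genes, ATP4 and ATP18, the lower galactose value exceeded the higher glucose value, and 15.1% of all genes did so. The opposite arrangement occurred for 0 of the 37 and for 23.6% of all genes, and the other 35 overlapped between the media.

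A missed threshold does not show equal levels, and the intervals, which are not adjusted for the number of probe sets, show how far each difference is known. The 95% interval of the difference lay within a 2-fold change either way for 25 of the 37 genes, beside 46.3% of all tested genes, and its half-width was 0.74 on the log2 scale at the median of the members, a factor of 1.67. The widest interval, that of the dehydrogenase gene NDE2, reached from -1.34 to 1.96. The medians over the members turned with the array left out. Without galactose C the median difference was -0.27, without galactose B it was 0.24, without glucose A 0.15 and without glucose B -0.15.

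**Figure D1:**
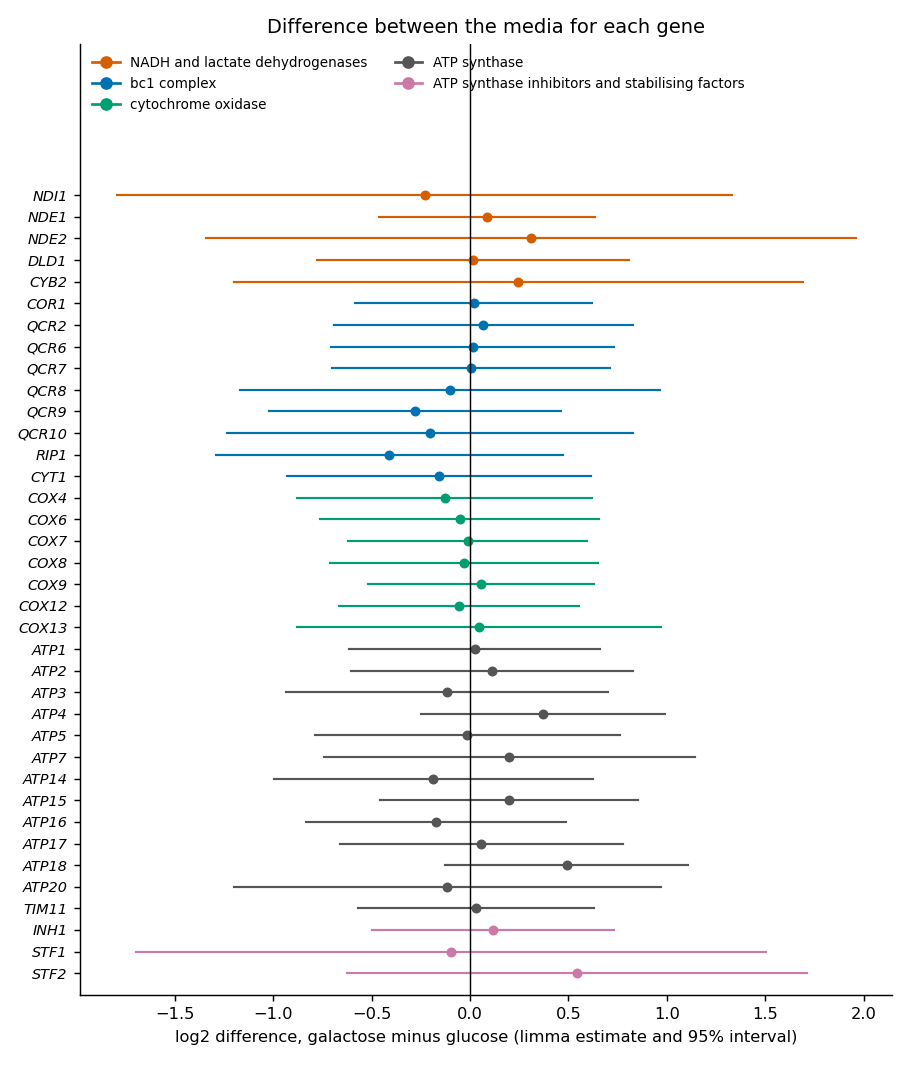
Log2 difference between galactose and glucose for each of the 37 genes, with the limma estimate as a point and its 95% interval as a line, coloured by complex. All intervals cross 0, and those of NDI1, NDE2, CYB2, STF1 and STF2 are wide beside those of the cytochrome oxidase subunits.

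Inside each medium, by contrast, the genes differed between the arrays of that medium in a common direction. All 37 were higher on galactose C than on galactose B, where 49.0% of all tested genes were, by a median log2 difference of 0.51 (1.42-fold) and a range from 0.14 to 1.65. In glucose, 34 of the 37 were higher on glucose A than on glucose B, where 43.4% of all genes were, by a median of 0.33 (1.26-fold). Both held together for 34 genes, beside 31.9% of all genes. The highest of the 4 values was on galactose C for 27 of the 37 (30.9% of all genes) and on glucose A for the other 10, and the lowest was on galactose B for 25 (25.4% of all genes), on glucose B for 11 and on glucose A for 1. With 1 array on each side these differences have no replicate and no test, and the genes are not independent of each other.

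At least 1.5-fold more on galactose C than on galactose B was measured for 16 of the 37 genes, beside 17.2% of all genes, and at least 2-fold for 5, beside 7.01%. On glucose A over glucose B, 3 genes reached 1.5-fold (8.46% of all genes) and 1 reached 2-fold (3.42%). The share of members past 1.5-fold was thus above that of all genes in galactose and close to it in glucose, although nearly all moved one way in both. Across the 37 genes the difference inside galactose and the difference inside glucose, which share no array, had a Pearson's r of 0.59 and a Spearman's rho of 0.53. Over all 5403 genes both were 0.57, about as large. Within each medium the array with the lower respiratory genes was also the one with the higher actin 3′ to 5′ ratio. The YER022W ratio ran the same way. The YER148W ratio hardly differed in galactose (1.91 on B, 1.88 on C) and ran the other way in glucose (2.13 on A, 1.38 on B). The part of RNA quality in the difference was not tested.

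**Figure D2:**
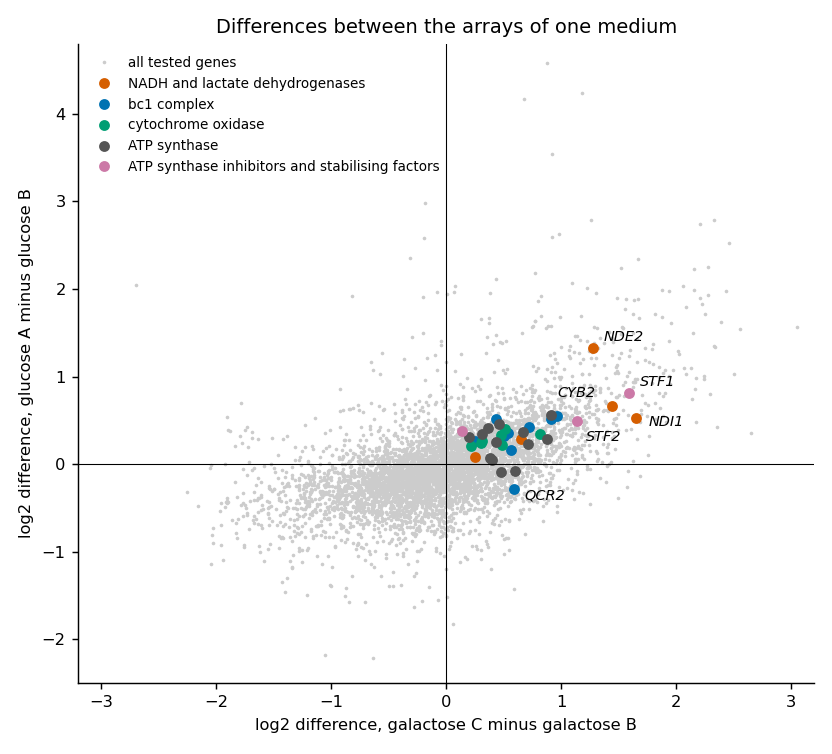
Log2 difference between the 2 galactose arrays (horizontal) and between the 2 glucose arrays (vertical) for all 5403 tested genes in grey and the 37 respiratory genes in colour. All coloured points lie right of 0, and 34 lie above 0 as well.

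Single arrays were also set against each other across the media, in comparisons that share arrays with those above. The median member was 0.12 lower on galactose B than on glucose B on the log2 scale (all genes, -0.07) and 0.06 higher on galactose C than on glucose A (all genes, -0.01). Galactose B lay below glucose A by a median of 0.40 (all genes, -0.03), for 34 of the 37 genes and for 2870 of all 5403. Galactose C lay above glucose B by a median of 0.38 (all genes, -0.05), for all 37 and for 2499 of all 5403 genes.

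**Figure D3:**
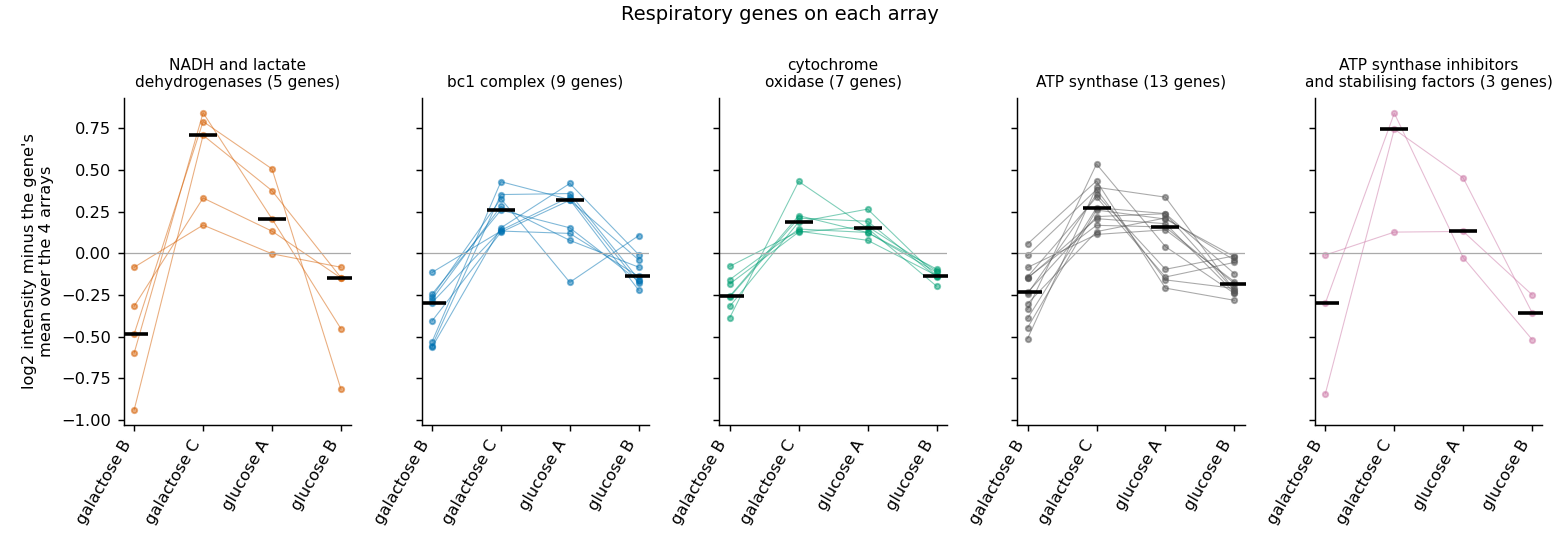
Log2 intensity of each gene on each array, relative to that gene's mean over the 4 arrays, in a panel per complex. Thin lines join the values of a gene and black bars are the medians of a panel, which are above 0 on galactose C and glucose A and below 0 on galactose B and glucose B in all 5 panels.

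Among the dehydrogenases, NDI1, NDE2 and CYB2 differed by more than 2-fold inside galactose and NDE1 did not. NDI1 (YML120C), the enzyme that oxidises NADH on the matrix side of the inner membrane, stood at 716 (B) and 2242 (C) in galactose and at 1781 (A) and 1241 (B) in glucose, the order kept for all pairs of values below. The galactose arrays thus enclosed both glucose values and differed by 3.13-fold, the largest difference inside galactose among the 37. Its means were 1479 ± 1079 in galactose and 1511 ± 381 in glucose (SD, 2 arrays each, as for all means below; limma, adjusted p = 0.931).

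NDE2 (YDL085W), which with NDE1 oxidises cytosolic NADH on the outer side of that membrane, stood at 878 and 2123 in galactose and at 1743 and 698 in glucose. It was 2.42-fold higher on galactose C than on galactose B and 2.50-fold higher on glucose A than on glucose B, the largest difference inside glucose among the 37. Its media did not separate (1.24-fold higher in galactose, 95% interval of the log2 difference -1.34 to 1.96, adjusted p = 0.917). NDE1 (YMR145C), the paralogous external enzyme, stood at 5271 and 6280.1 in galactose and 5573 and 5270.2 in glucose. Its arrays differed by no more than 1.19-fold inside a medium.

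The lactate dehydrogenases, which pass electrons straight to cytochrome c, went the same way. CYB2 (YML054C), the L-lactate enzyme cytochrome b2, stood at 1179 and 3198 in galactose and at 2057 and 1303 in glucose, 2.71-fold higher on galactose C than on galactose B and 1.58-fold higher on glucose A than on glucose B (between media 1.19-fold, adjusted p = 0.924). DLD1 (YDL174C), the D-lactate enzyme, stood at 2211 and 3465 in galactose and at 3019 and 2485 in glucose (1.01-fold between media, adjusted p = 0.996). For the 5 genes together the median log2 difference was 0.09 between media, 1.27 inside galactose and 0.52 inside glucose.

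**Figure D4:**
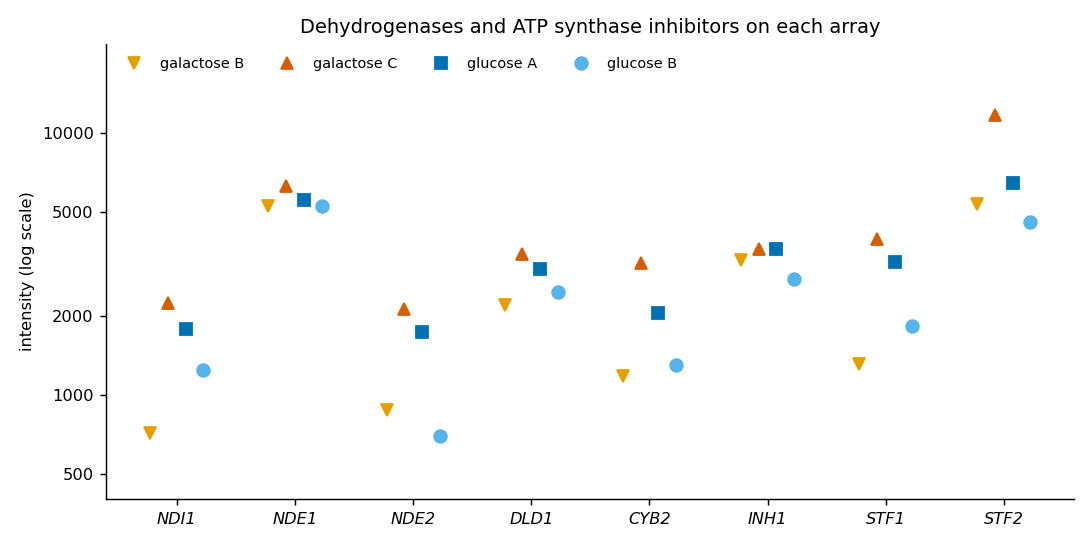
Intensity on a log axis of the 5 dehydrogenase genes and of INH1, STF1 and STF2 on each of the 4 arrays. NDE1 and INH1 stay close together on all arrays, while NDI1, NDE2, CYB2 and STF1 are low on both B arrays.

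The bc1 complex moves electrons from quinone to cytochrome c. Its 9 genes had a median log2 difference of -0.10 between the media, 0.56 between galactose C and B and 0.36 between glucose A and B. QCR8 (YJL166W), a small subunit, had the largest differences of the complex inside both media, at 3195 and 6217 in galactose and at 5771 and 3959.6 in glucose (1.95-fold and 1.46-fold). Galactose B and glucose B were again the low arrays, and the media overlapped (1.07-fold lower in galactose, adjusted p = 0.961). A second probe set that names QCR8 alone lay under the floor on every array, between 15.4 and 16.7, and was not tested.

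The nuclear genes of the electron-carrying subunits did not pass the test. RIP1 (YEL024W), the Rieske iron-sulfur protein, stood at 1328 and 2183 in galactose and at 2625 and 1953 in glucose, 1.33-fold lower in galactose (log2 interval -1.29 to 0.47, adjusted p = 0.769). This was the lowest difference between the media among the 37, and galactose C still lay above glucose B. CYT1 (YOR065W), cytochrome c1, stood at 1982 and 2676 in galactose and at 3074 and 2146 in glucose (1.12-fold lower in galactose, adjusted p = 0.906). RIP1 and CYT1 were chosen for description after their values were seen.

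The core subunits COR1 (YBL045C) and QCR2 (YPR191W) stood close between the media, at 2288 ± 278 against 2259 ± 285 and at 2200.5 ± 625 against 2067 ± 283 (adjusted p = 0.988 and 0.963). QCR2 was the only gene of the complex lower on glucose A than on glucose B, at 1867 against 2267. The small subunits QCR6, QCR7, QCR9 and QCR10 were 1.42-fold, 1.47-fold, 1.45-fold and 1.87-fold higher on galactose C than on galactose B, and 1.25-fold, 1.12-fold, 1.28-fold and 1.43-fold higher on glucose A than on glucose B.

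By its 7 listed genes, cytochrome oxidase, which reduces oxygen to water, had the smallest spread between media among the listed groups. All 7 differed by under 0.2 on the log2 scale, from -0.13 (COX4) to 0.05 (COX9), beside 2271 of all 5403 genes. The 95% interval lay within a 2-fold change for all 7, beside 46.3% of all genes. Nuclear subunit genes of the oxidase in a further list differed more, at -0.56 (COX5A), 0.61 (COX5B) and 0.48 (COX26). COX4 (YGL187C) had the largest difference inside glucose, at 3808 against 2884 (1.32-fold), with 2543 and 3610.4 in galactose (adjusted p = 0.923 between media). COX13 (YGL191W) had the largest inside galactose, at 1037 against 1825 (1.76-fold), with 1503 and 1181 in glucose (adjusted p = 0.979). For both genes the B arrays were the low ones.

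The other listed subunit genes, COX6, COX7, COX8, COX9 and COX12, were between 1.16-fold and 1.40-fold higher on galactose C than on galactose B. They were between 1.16-fold and 1.26-fold higher on glucose A than on glucose B. COX12 (YLR038C) illustrates the pattern, with 5871 and 7283 in galactose and 7452 and 6196 in glucose. The median of the listed genes of the complex was -0.03 between media, 0.47 inside galactose and 0.27 inside glucose on the log2 scale. After quantile normalization COX6, COX7, COX8 and COX12 changed from slightly lower to slightly higher in galactose, so no direction is given for the complex.

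ATP synthase held the 2 genes whose arrays separated by medium. ATP18 (YML081C-A), a small subunit of the membrane part, stood at 1962 and 2549 in galactose and at 1633 and 1552 in glucose. The media did not overlap, and the means differed by 1.40-fold (log2 interval -0.13 to 1.11, unadjusted p = 0.0955, adjusted p = 0.633). ATP4 (YPL078C), subunit b of the peripheral stalk, stood at 2356 and 3097 in galactose and at 2128 and 2054 in glucose. It was 1.29-fold higher in galactose (log2 interval -0.25 to 0.99, adjusted p = 0.729). For both genes the glucose arrays lay close together, within 1.05-fold, and the spread lay between the galactose arrays.

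The genes of the catalytic head overlapped between the media, as did 3311 of all 5403 genes. ATP1 (YBL099W) and ATP2 (YJR121W), its alpha and beta subunits, stood at 4740.3 ± 725 against 4670.2 ± 772 and at 5569 ± 1604 against 5049.8 ± 199 (adjusted p = 0.985 and 0.927). ATP3 (gamma), ATP16 (delta) and ATP15 (epsilon) form the central rotor stalk, and their log2 differences between media were -0.12, -0.17 and 0.20 (adjusted p = 0.935, 0.874 and 0.851). ATP2 and ATP15 were the genes of this enzyme that were lower on glucose A than on glucose B, at 4909 against 5191 and at 2996 against 3183.

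In the peripheral stalk and membrane part, ATP20 (YPR020W), a subunit linked to dimers of the enzyme, had the largest differences inside both media, at 258 and 485 in galactose and at 465 and 316 in glucose (1.88-fold and 1.47-fold, adjusted p = 0.956 between media). TIM11 (YDR322C-A), the other dimer subunit, stood at 3018 and 3462 in galactose and at 3529 and 2845 in glucose, with 1.15-fold and 1.24-fold inside the media. ATP5, ATP7, ATP14 and ATP17 were between 1.28-fold and 1.83-fold higher on galactose C than on galactose B, and none of them passed between media (adjusted p from 0.889 to 0.996). ATP14 is read by 2 probe sets that disagree in sign between media, with log2 differences of -0.19 on the brighter and 0.26 on the other, and both were higher on galactose C and on glucose A. The median of the 13 genes was 0.03 between media, 0.45 inside galactose and 0.28 inside glucose.

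The inhibitor INH1 (YDL181W), which binds the catalytic head and stops it from splitting ATP, stood at 3279 and 3606 in galactose and at 3616 and 2779 in glucose (1.08-fold between media, adjusted p = 0.914). Its log2 difference of 0.14 inside galactose was the smallest of the 37. STF1 (YDL130W-A), a protein related to INH1, stood at 1315 and 3946 in galactose and at 3222 and 1840.2 in glucose. The galactose arrays enclosed the glucose values and differed by 1.59 on the log2 scale, and glucose A lay 1.75-fold above glucose B (adjusted p = 0.973 between media). STF2 (YGR008C), known as a stabilising factor of the inhibited enzyme, stood at 5354 and 11785 in galactose and at 6465 and 4599 in glucose. Its mean was 1.46-fold higher in galactose, the largest difference between the media among the 37, and rested on galactose C, since galactose B lay below glucose A (log2 interval -0.62 to 1.71, adjusted p = 0.769).

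Further genes of respiration, listed by function with earlier results of these data known, were read in the same way, and none of them passed between the media over all probe sets (limma). The 10 other nuclear subunits and electron carriers overlapped between media in every case, as did 3311 of all 5403 genes. Of the 10, 0 had an unadjusted p under 0.05 (limma), beside 8.61% of probe sets. All 10 were higher on galactose C than on galactose B and on glucose A than on glucose B, beside 31.9% of all genes. The medians of the 10 were 1.02 inside galactose and 0.68 inside glucose on the log2 scale. SDH2 (YLL041C), the iron-sulfur subunit of succinate dehydrogenase, stood at 2122 and 5002 in galactose and at 4466 and 2546 in glucose. CYC1 (YJR048W), the main cytochrome c gene, stood at 6356 and 10074 in galactose and at 10870.3 and 8761 in glucose. CYC7 (YEL039C), the hypoxic cytochrome c gene, chosen after its values were seen, stood at 1244 and 5559.7 in galactose and at 2919.6 and 1612 in glucose, 4.47-fold and 1.81-fold apart inside the media. Of the exchangeable subunits of cytochrome oxidase, the hypoxic COX5B (YIL111W) was 1.52-fold higher in galactose at 531 and 999 against 576 and 396, and the aerobic COX5A (YNL052W), chosen after its values were seen, was 1.47-fold lower at 1878 and 2772 against 4227 and 2660.3 (adjusted p = 0.734 and 0.718).

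The genes of the mitochondrial genome, which encode the core of the same complexes, showed another arrangement. One of the 7 listed, ATP8, a membrane subunit of ATP synthase, lay above the floor on galactose C alone and is left out of the counts. The other 6 were all higher in galactose by the mean, where 2528 of all 5403 genes were, with a median log2 difference of 0.55. For 4 of the 6 the media did not overlap in that direction, beside 15.1% of all genes. None of the 6 passed over all probe sets (limma), and 2 had an unadjusted p under 0.05, beside 8.61% of probe sets. The actin 3′ to 5′ ratio was also higher on both galactose arrays (2.41 and 1.88) than on both glucose arrays (1.097 and 1.49), as was that of YER022W and not that of YER148W, and the part of RNA quality in this difference was not tested. COB (Q0105), the cytochrome b of the bc1 complex, stood at 306 and 338 in galactose and at 211 and 161 in glucose (1.74-fold, unadjusted p = 0.0345, adjusted p = 0.533). The other was COX2 (Q0250), a core oxidase subunit, at 42.1 and 49.9 against 24.7 and 30.4 (1.67-fold, adjusted p = 0.397). Inside the media the medians of the 6 genes were 0.14 in galactose and 0.16 in glucose, beside 0.51 and 0.33 for the 37 nuclear genes. The difference between the lists was not tested. The 6 genes had no common direction inside the media. On galactose C 4 were higher and 2 lower than on galactose B, and on glucose A 3 were higher and 3 lower than on glucose B.

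Probe sets of these genes do not all tell the same. COX1 (Q0045), the catalytic subunit of the oxidase, stood at 11775 and 13192 in galactose and at 9415 and 9477 in glucose on its brightest probe set (1.32-fold, adjusted p = 0.633). Its other probe sets had log2 differences of 0.13 and -0.12. OLI1 (Q0130), the rotor ring subunit of ATP synthase, stood at 8293 and 9121 against 8839 and 7082 (log2 difference 0.14, adjusted p = 0.885).

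**Figure D5:**
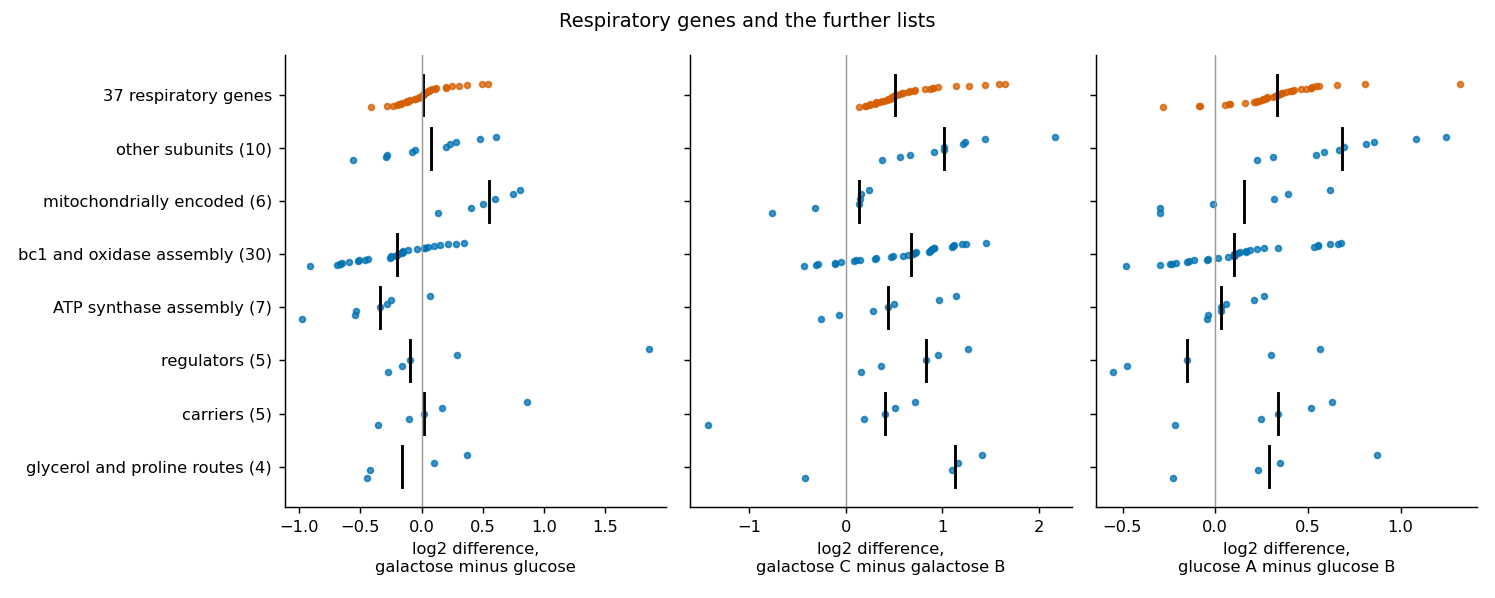
Log2 differences between the media (left), between galactose C and B (middle) and between glucose A and B (right) for the 37 respiratory genes and 7 further lists, a point per gene above the floor on all arrays, with the list's median as a black bar and the number of genes in brackets. The mitochondrially encoded genes lie right of 0 in the left panel, and the 37 nuclear genes lie right of 0 in the middle panel.

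None of the assembly factors passed between the media. Of 30 genes for building the bc1 complex and the oxidase, 22 had a lower mean in galactose, where 2875 of all 5403 genes did, with a median log2 difference of -0.20, and for 8 of the 30 the media did not overlap in that direction, a share near the 23.6% of all genes. Of the 30, 1 had an unadjusted p under 0.05, beside 8.61% of probe sets. The lower median of the 30 rested on galactose B. That array had the highest 3′ to 5′ ratio for actin and YER022W but not for YER148W, and the part of RNA quality was not tested. The median of galactose B minus glucose B was -0.47, while that of galactose C was -0.02 against glucose A and 0.06 against glucose B. For the 8 genes that did not overlap, galactose C lay below both glucose arrays by definition. CYT2 (YKL087C), which attaches heme to cytochrome c1, stood at 262 and 492 in galactose and at 721 and 634 in glucose (1.88-fold lower, adjusted p = 0.591). MSS51 (YLR203C), which activates translation of COX1, and COX17 (YLL009C), a copper chaperone, were 1.12-fold and 1.56-fold lower (adjusted p = 0.867 and 0.742). For ATP synthase, 6 of 7 assembly genes had a lower mean in galactose, beside 2875 of all 5403 genes, with a median of -0.34. For 3 of the 7 the media did not overlap in that direction, beside 23.6% of all genes. Of the 7, 2 had an unadjusted p under 0.05 (limma), beside 8.61% of probe sets. The medians of the 7 were -0.66 for galactose B minus glucose B, and -0.01 and 0.02 for galactose C minus glucose A and minus glucose B. The 3 genes that did not overlap were ATP10, ATP11 and ATP23, for which galactose C lay below both glucose arrays by definition. For ATP23 the log2 differences of galactose C were -0.97 against glucose A and -0.70 against glucose B. ATP23 (YNR020C), a processing peptidase and chaperone, stood at 282 and 343 in galactose and at 670 and 558 in glucose (1.97-fold lower, unadjusted p = 0.0139, adjusted p = 0.383). FMC1 and ATP11, which help the head to assemble, were 1.22-fold and 1.45-fold lower (adjusted p = 0.858 and 0.619).

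Among the regulators, HAP4 (YKL109W), the activating subunit of the Hap2/3/4/5 complex, had the order across arrays that most respiratory genes had inside the media, at 1251 and 2229 in galactose and at 2067 and 1679.7 in glucose (adjusted p = 0.923). HAP5 stood at 653 and 730 against 608 and 890 (adjusted p = 0.949). HAP1 (YLR256W), a heme-responsive activator, was 3.62-fold higher in galactose on its brightest probe set, at 628 and 1221 against 205 and 285 (unadjusted p = 0.00732, adjusted p = 0.279). That probe set has the name ending of those that can read several related sequences. Another probe set of that kind stood at 478 and 765 against 119 and 174, a log2 difference of 2.07 (adjusted p = 0.156). On the probe set without this ending HAP1 stood at 487 and 438 against 289 and 271, a log2 difference of 0.72 (adjusted p = 0.520).

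Of the carriers, the main ADP/ATP exchanger gene PET9 (YBL030C) stood at 4627 and 6116 in galactose and at 6207 and 5235 in glucose, and the outer membrane porin gene POR1 at 3119 and 5127 against 4251 and 2970.1 (adjusted p = 0.927 and 0.916). The minor exchanger gene AAC1 (YMR056C) stood at 821 and 1168 against 672 and 434, 1.81-fold higher in galactose (unadjusted p = 0.0546, adjusted p = 0.591). The glycerol phosphate dehydrogenase gene GUT2, another entry to quinone, was 2.15-fold higher on galactose C than on galactose B and 1.28-fold higher on glucose A than on glucose B, and MCR1, a cytochrome b5 reductase of mitochondria, was 2.65-fold and 1.17-fold higher. PUT1, the proline oxidase, stood at 221 and 496 in galactose and at 609 and 332 in glucose (adjusted p = 0.838).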

How the data were processed

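The deposited table holds 1 intensity per probe set and array on a linear scale, summarised by the authors; the sources used here do not name software, background treatment or scaling. Array medians differed by a factor of 1.08, under the limit of 1.1, so no scaling was added. The test leaves out 60 control probe sets. Genes were named by the platform annotation, and 6504 probe sets with 1 symbol matched RefSeq assembly R64 by gene number. Values under the 25th percentile of the pooled intensities (18.5) were set to it, log2 was taken, and 7302 probe sets above it on at least 1 array were fitted with limma 3.58.1 in R 4.3.3 (lmFit, eBayes with trend, 4.73 total degrees of freedom) and adjusted by Benjamini-Hochberg over all of them. Folds are differences of mean log2 values; SDs are of intensities. The media share only the letter B, so no block was used. An exact permutation test of 2 against 2 arrays cannot go below p = 0.333. The number of arrays limits the precision. Members, lists and naming rule were chosen with earlier results of these data known. The naming rule allows all members, and gives per-array values for those apart between media and those with the largest differences inside a medium. From each further list it takes genes that pass, otherwise the 2 brightest and the 1 with the largest difference. Members outside the rule, described after their values were seen, were NDE1, DLD1, CYB2, QCR2, RIP1, CYT1, COX12, ATP2, ATP15, TIM11, INH1 and STF2. Further genes so described were COX5A, CYC7, COX26, COX2, ATP8 and ATP10. A planned count of promoter motifs was not run, since no sequences were used here. The procedure was tested on simulated data. Alternatives were other scalings, floors and filters, eBayes without trend or robust, the mean over probe sets, and each array left out. Tables were made in pandas 2.3.3 and figures in matplotlib 3.10.9, both under Python 3.11.15.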

Additional observations from a re-analysis of the deposited data

How the results depend on the processing

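None of the 37 genes passed under any alternative fit or threshold, with the smallest adjusted p between 0.567 (quantile normalization) and 0.665 (robust eBayes) over the fits to all 4 arrays. The fits with 1 array left out called no probe set at all, galactose genes included, and say nothing of the members. The counts over all probe sets were 58 higher and 3 lower in galactose, and 25 higher after quantile normalization, 32 higher with the floor at the 10th percentile, and from 0 to 0 in either direction with any 1 array left out. No paired analysis was possible because the media share only the letter B. With 1 array left out the median difference between media ran from -0.33 to 0.59 for the dehydrogenases, from -0.37 to 0.25 for the bc1 complex, from -0.27 to 0.16 for cytochrome oxidase, from -0.19 to 0.24 for ATP synthase and from -0.073 to 0.70 for the inhibitors and stabilising factors, so every group turned in sign. The lowest was without galactose C, or glucose B for the inhibitors, and the highest without galactose B. Signs of single genes between media changed for 17 of 37 without galactose C, 15 without galactose B, 14 without glucose A, 12 without glucose B, 5 after quantile normalization and 1 with the mean over probe sets. Inside galactose the medians of galactose B minus galactose C after quantile normalization were -1.12 for the dehydrogenases, -0.37 for cytochrome oxidase, -0.33 for ATP synthase, -1.27 for the inhibitors and stabilising factors and -0.40 over all 37. Quantile normalization moved INH1 to 0 and left the other 36 lower on galactose B. With a common median they were -1.39, -0.68 (bc1 complex), -0.59, -0.57, -1.26 and -0.62, a setting that moved the median of all genes from 0.01 to -0.10. At 2-fold in place of 1.5-fold, 5 genes in place of 16 passed inside galactose and 1 in place of 3 inside glucose. Inside glucose all medians stayed within 0.1 of their values, and 34 genes were higher on glucose A after quantile normalization too, with ATP2 and ATP4 changing sign. With 2 arrays per medium the adjusted threshold asks for more than the interval's half-width, which is unadjusted: HAP1, at 1.86 on the log2 scale, did not pass.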

Other observations

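The array carries a control probe set labelled with RIP1, outside the tested probe sets, which gives a second reading of the Rieske protein. It stood at 1089.8 (B) and 1663 (C) in galactose and at 2316 (A) and 1729 (B) in glucose. On this probe set the media did not overlap, with a log2 difference of -0.57, whereas the probe set used for RIP1 overlapped between the media (-0.41). Both probe sets were higher on galactose C than on galactose B, by 0.61 and 0.72, and higher on glucose A than on glucose B, by 0.42 and 0.43. The control probe set was not part of the fit and has no p-value.

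Control probe sets of ribosomal RNA also differed between the arrays of a medium. The first 18S probe set stood at 343 and 919.7 in galactose and at 476 and 395 in glucose, in the same order, and the first 25S probe set at 4427, 7747, 4535 and 3515. Both were higher on the arrays where the respiratory genes were higher. Their part in the differences inside the media was not tested.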
